A study of Mus musculus with 2 samples.

Results

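The genes described here are 37 genes of muscle energy metabolism: the enzymes of glycolysis, the enzymes that build and break down glycogen, the creatine kinases and myoglobin, the transporters of glucose and lactate, and 2 kinases that control the entry of pyruvate into mitochondria. They were chosen by name, as the probe sets whose gene symbol was exactly one of the 37. The rule uses no values, but the list was drawn up with earlier results of these data known. Of the 37 genes, 34 had at least 1 probe set with that symbol alone, 41 probe sets in all, among the 19938 genes that the array could name in the same way. The symbols Eno1 and Gpi1 stood on no probe set, and Gapdh stood only on 25 probe sets that carry several symbols, so these 3 genes were not named here.

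MLL1, encoded by Kmt2a, is a histone methyltransferase, and the study asked what its loss does to gene expression in cultured mouse myoblasts, the dividing precursors of muscle fibres. RNA was measured on 2 Affymetrix MoGene 1.0 ST arrays, 1 of Mll1 cKO myoblasts and 1 of control myoblasts, both from a single Rosa-CreER / MLL1 fl/fl line, in which both Mll1 alleles are floxed and a tamoxifen-inducible Cre recombinase is driven by the ubiquitous Rosa26 locus. The line came from hind limb muscle of 5- to 6-week-old mice, from which cells with the lineage markers CD11b, SCA1, CD45 and CD31 had been removed. Both cultures were kept in medium with 20% serum and 5 ng/ml FGF. The paper reports that Mll1 cKO myoblasts expanded less in culture than control myoblasts. The Mll1 cKO culture received 500 nM 4-hydroxytamoxifen (4-OHT) in 0.01% ethanol for 7 days and the control culture 0.01% ethanol for 7 days, each followed by 3 days without these agents according to the labels (2 days in the methods). Only the Mll1 cKO culture had 4-OHT and active Cre, so effects of the drug, of Cre and of the deletion cannot be told apart. Each value below is 1 culture on 1 array, so no difference could be set against a spread between cultures, no test was possible, and all differences are descriptions of these 2 arrays.

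In glycolysis glucose is split into pyruvate, which is reduced to lactate or burnt in mitochondria, and the pathway yields ATP fast enough to feed contraction. Muscle stores glucose as glycogen and high-energy phosphate as phosphocreatine, and holds oxygen on myoglobin. Many steps exist as several isoforms, and differentiating muscle replaces forms found in most cells or in brain by its own, such as PFKM for PFKL and PFKP, PGAM2 for PGAM1, ENO3 for ENO1, PYGM for PYGB and CKM for CKB. Dividing myoblasts express general forms together with some muscle forms.

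The promoters of the 4 genes with the highest difference and of the 2 with the lowest are shown first, because they are the members that lie farthest from the rest. They are followed by that of Pgam2, which was added after its values and motifs were seen. Each runs 5′ to 3′ over 250 bases before and 50 bases after the start of the gene, from RefSeq on GRCm38.p6. Capitals mark matches, on either strand, to the E-box of myogenic factors CAGCTG, to the E-box CACCTG (read CAGGTG on the other strand), to ACGTG or GCGTG (read CACGT or CACGC on the other strand), the core bound by hypoxia-inducible factors, and to the MEF2 consensus; ACGTG also lies inside the E-box CACGTG. Of the 3 start sites listed for Mb, the second is shown; it overlaps the third, and the first holds none of these motifs.
Ldhb (chr6:142507908-142508207, minus strand): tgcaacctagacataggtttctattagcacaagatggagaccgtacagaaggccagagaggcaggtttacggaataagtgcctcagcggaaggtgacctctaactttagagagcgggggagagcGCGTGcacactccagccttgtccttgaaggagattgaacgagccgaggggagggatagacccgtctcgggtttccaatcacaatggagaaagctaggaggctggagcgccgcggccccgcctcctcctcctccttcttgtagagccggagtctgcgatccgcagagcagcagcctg
Eno2 (chr6:124769624-124769923, minus strand): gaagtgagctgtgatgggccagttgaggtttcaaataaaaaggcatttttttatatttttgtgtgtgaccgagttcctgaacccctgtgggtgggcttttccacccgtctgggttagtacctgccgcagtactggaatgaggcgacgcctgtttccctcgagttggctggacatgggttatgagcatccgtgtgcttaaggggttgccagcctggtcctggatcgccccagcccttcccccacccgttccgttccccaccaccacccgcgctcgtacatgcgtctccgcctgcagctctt
Mb (chr15:77022738-77023037, minus strand): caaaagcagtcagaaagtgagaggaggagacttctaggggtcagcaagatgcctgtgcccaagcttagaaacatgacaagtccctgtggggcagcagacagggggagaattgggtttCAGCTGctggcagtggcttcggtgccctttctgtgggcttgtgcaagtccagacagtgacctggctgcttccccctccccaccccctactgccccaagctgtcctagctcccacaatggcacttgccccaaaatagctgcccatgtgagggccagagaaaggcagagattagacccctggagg
Phkb (chr8:85840738-85841037, plus strand): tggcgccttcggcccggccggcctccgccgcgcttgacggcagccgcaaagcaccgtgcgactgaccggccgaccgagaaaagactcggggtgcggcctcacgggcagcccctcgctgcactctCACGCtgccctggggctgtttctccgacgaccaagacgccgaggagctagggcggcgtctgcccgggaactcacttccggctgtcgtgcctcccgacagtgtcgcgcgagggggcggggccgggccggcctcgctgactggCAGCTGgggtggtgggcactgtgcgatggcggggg
Pgk1 (chrX:106186850-106187149, plus strand): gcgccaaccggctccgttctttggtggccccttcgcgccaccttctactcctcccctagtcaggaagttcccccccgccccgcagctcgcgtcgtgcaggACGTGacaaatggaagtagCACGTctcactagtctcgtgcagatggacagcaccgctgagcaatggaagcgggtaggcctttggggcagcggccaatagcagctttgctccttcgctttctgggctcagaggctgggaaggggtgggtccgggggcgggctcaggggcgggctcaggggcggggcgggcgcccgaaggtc
Slc16a1 (chr3:104638414-104638713, plus strand): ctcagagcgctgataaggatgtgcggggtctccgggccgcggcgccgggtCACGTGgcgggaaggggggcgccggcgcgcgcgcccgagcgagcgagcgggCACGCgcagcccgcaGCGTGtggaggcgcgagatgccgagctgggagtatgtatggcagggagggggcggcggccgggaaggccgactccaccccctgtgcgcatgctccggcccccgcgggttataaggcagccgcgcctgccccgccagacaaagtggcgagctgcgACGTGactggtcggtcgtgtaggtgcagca
Pgam2 (chr11:5803747-5804046, minus strand): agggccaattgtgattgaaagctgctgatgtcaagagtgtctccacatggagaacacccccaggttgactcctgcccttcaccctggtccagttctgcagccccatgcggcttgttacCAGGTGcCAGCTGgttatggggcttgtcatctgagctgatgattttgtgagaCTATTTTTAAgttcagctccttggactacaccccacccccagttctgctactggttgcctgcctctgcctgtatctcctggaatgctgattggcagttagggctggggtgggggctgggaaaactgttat

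None of the 34 measured members differed by more than 2-fold, the cut-off of the study's methods, in either direction. Over all 19938 named genes, 1.16% were more than 2-fold higher and 0.11% more than 2-fold lower in Mll1 cKO myoblasts. At 1.5-fold, 3 members were higher, Ldhb, Eno2 and Mb, and 0 were lower, against 4.86% of all named genes higher and 2.01% lower. The median log2 difference, Mll1 cKO minus control, was -0.06 over the members and -0.05 over all named genes, 95% of which lay between -0.56 and 0.78. Among the 25 members with a log2 signal over 7 in either array, where 2 were higher at 1.5-fold and 0 lower, the share over all genes of that brightness was 7.37% higher and 1.99% lower. Counted at any size, 15 members had the higher signal in Mll1 cKO myoblasts and 19 the lower, and over all named genes 41.6% were higher and 55.6% lower. Of the 34 members, 20 differed by less than 0.2 on the log2 scale and 9 by less than 0.1. In bulk RNA such as this, fewer cells that express a gene and less of its RNA per cell cannot be told apart.

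**Figure D1:**
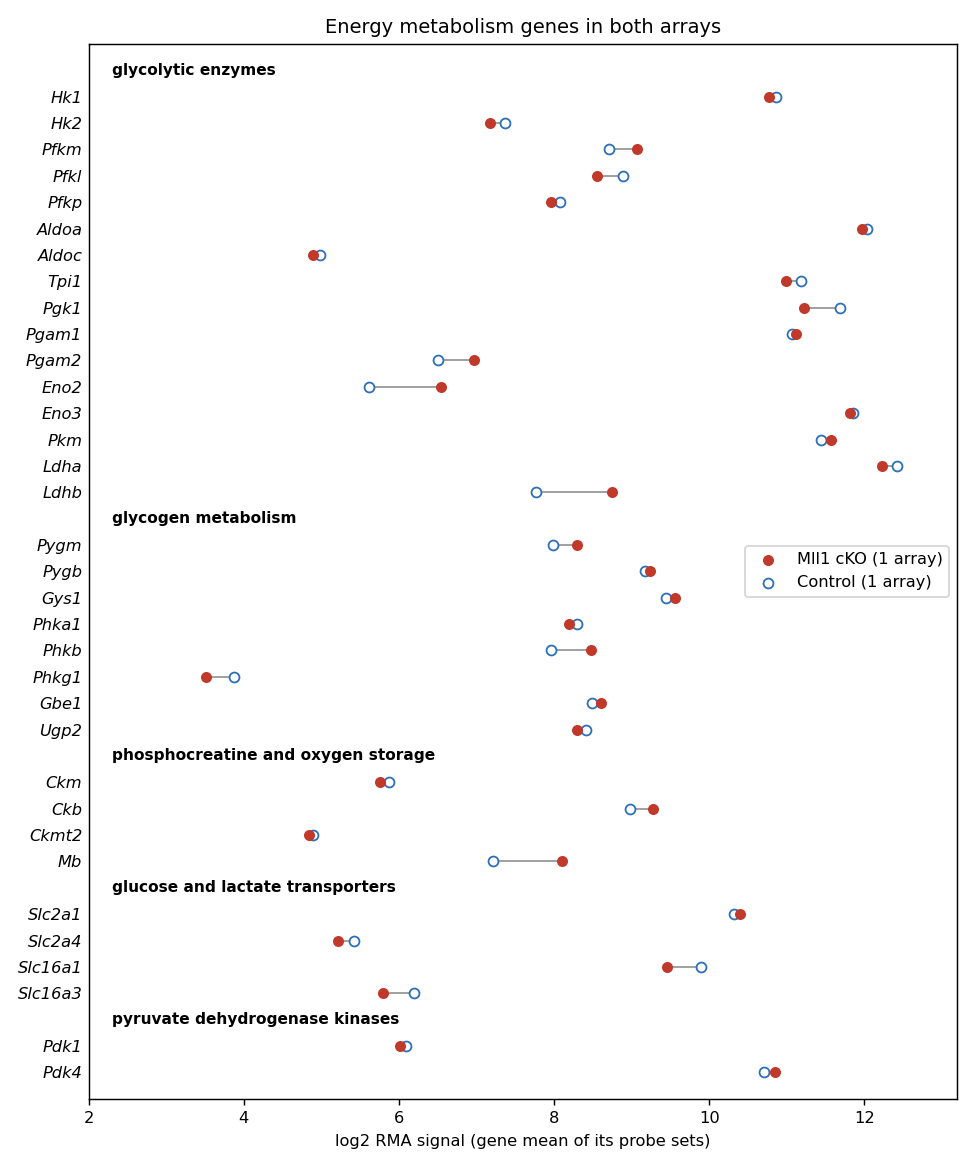
Log2 RMA signal of each member in the Mll1 cKO array (filled red) and in the control array (open blue), grouped by role, with a line joining the 2 arrays. The widest gaps are those of Ldhb, Eno2 and Mb with the higher signal in Mll1 cKO, and of Pgk1 and Slc16a1 with the lower, and no gap reaches 1, which is 2-fold.

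Of 9 myoblast markers, 3 were higher and 6 lower in Mll1 cKO, and Myf5 alone was more than 2-fold lower. Myod1, the myogenic determination factor, had 12.27 log2 units in the Mll1 cKO array and 12.15 in the control array, and Pax7 had 10.02 in Mll1 cKO and 10.29 in control, while Myf5 had 6.14 in Mll1 cKO against 9.51 in control. The probe set of Kmt2a itself read 9.66 in Mll1 cKO and 9.44 in control, which checks nothing about the excision, since where its probes lie relative to the deleted exons was not known here. All 5 endothelial markers lay between 3.94 and 5.03 in Mll1 cKO and between 4.15 and 5.08 in control. Of the 5 immune markers measured, Cd68, a lysosomal protein of macrophages and other cells, read 7.47 in Mll1 cKO and 6.08 in control, while the pan-leukocyte gene Ptprc read 3.69 in Mll1 cKO and 3.83 in control. Of the 9 fibroblast and mesenchymal markers 2 were higher in Mll1 cKO and 7 lower. Cd34 read 7.22 in Mll1 cKO and 5.96 in control, but the paper also used CD34 as a positive marker to sort satellite cells. The summed linear signal of the list was 616 in Mll1 cKO and 638 in control. Among the 5 adipocyte and the 4 smooth muscle markers none differed by more than 2-fold.

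The first steps of glycolysis commit glucose to the pathway. Hexokinase 1, the form of most cells, had 2 probe sets under the symbol Hk1. One matched RefSeq transcripts of Hk1 and read 9.72 log2 units in Mll1 cKO and 9.70 in control. The other read 11.83 in Mll1 cKO and 12.01 in control, but the only transcript it matched is shared with 16 probe sets that all carry the ribosomal protein gene Rpl17, so the mean of both, 10.78 in Mll1 cKO and 10.86 in control may not be a value of Hk1. Hk2, the hexokinase of insulin-sensitive tissues such as muscle, read 7.17 in Mll1 cKO and 7.36 in control.

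Phosphofructokinase catalyses the main regulated step, and its 3 subunits did not share a direction. The muscle subunit Pfkm read 9.07 in Mll1 cKO and 8.71 in control, 1.29-fold higher in Mll1 cKO. The liver subunit Pfkl read 8.55 in Mll1 cKO and 8.89 in control, and the platelet subunit Pfkp 7.96 in Mll1 cKO and 8.08 in control. Thus the muscle subunit was the one with the higher signal in Mll1 cKO, and this order of the 3 differences held under each alternative processing that was tried.

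Aldolase cleaves the 6-carbon sugar. Aldoa, the form of muscle and of most dividing cells, read 11.97 in Mll1 cKO and 12.03 in control, and Aldoc, the brain form, read 4.89 in Mll1 cKO and 4.98 in control. Triose phosphate isomerase, Tpi1, read 10.99 in Mll1 cKO and 11.19 in control. All 3 thus lay within 0.2 log2 units of the control array.

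Phosphoglycerate kinase 1, which makes the first ATP of the pathway and is a single gene used in every somatic cell, had the lowest difference of the 34 members. Pgk1 averaged 11.22 in Mll1 cKO and 11.69 in control, 1.38-fold lower in Mll1 cKO, and 5.58% of all named genes had a lower difference. Its 3 probe sets gave -0.47, -0.47 and -0.46, but the first 2 carry identical signals in both arrays, and near-identical processed copies of Pgk1 in the genome can share its probes. The Pgk1 promoter above holds ACGTG and, farther on, the same core on the other strand as CACGT.

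At the next steps the muscle form was compared with another form for phosphoglycerate mutase and enolase. The muscle mutase Pgam2 read 6.96 in Mll1 cKO and 6.51 in control, 1.37-fold higher in Mll1 cKO, while the general form Pgam1 read 11.12 in Mll1 cKO and 11.07 in control. For enolase the general form Eno1 was not measured, so Eno3 was set beside Eno2, and the order of these 2 was the opposite. Eno3, the muscle enolase, read 11.81 in Mll1 cKO and 11.86 in control. Eno2, the enolase of neurons and endocrine cells, read 6.54 in Mll1 cKO and 5.62 in control, 1.89-fold higher in Mll1 cKO, and 1.5% of all named genes had a larger difference. Eno2 is also the one of the 7 genes shown above whose promoter holds none of the 4 motifs.

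Pyruvate kinase and lactate dehydrogenase end the pathway. Pkm averaged 11.56 in Mll1 cKO and 11.44 in control over 2 probe sets, of which the one with a RefSeq transcript read 11.72 in Mll1 cKO and 11.47 in control. Ldha, the subunit of fast muscle that favours the making of lactate, read 12.22 in Mll1 cKO and 12.42 in control. Ldhb, the subunit of heart and slow muscle that favours the use of lactate, averaged 8.74 in Mll1 cKO and 7.77 in control, 1.96-fold higher in Mll1 cKO. This was the highest difference of any member, and 1.28% of all named genes had a larger one. Its 2 probe sets gave 8.70 and 8.78 in Mll1 cKO, against 7.73 and 7.82 in control. Whether they are separate measurements of Ldhb, or share sequence with a copy elsewhere in the genome, was not checked. When differences were centred on their median, Ldhb alone among the members passed 2-fold, with 1.03 on the log2 scale.

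Over the 16 measured glycolytic enzymes, 6 had the higher signal in Mll1 cKO and 10 the lower, with a median difference of -0.07 that lay between -0.09 and -0.01 under the alternatives.

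**Figure D2:**
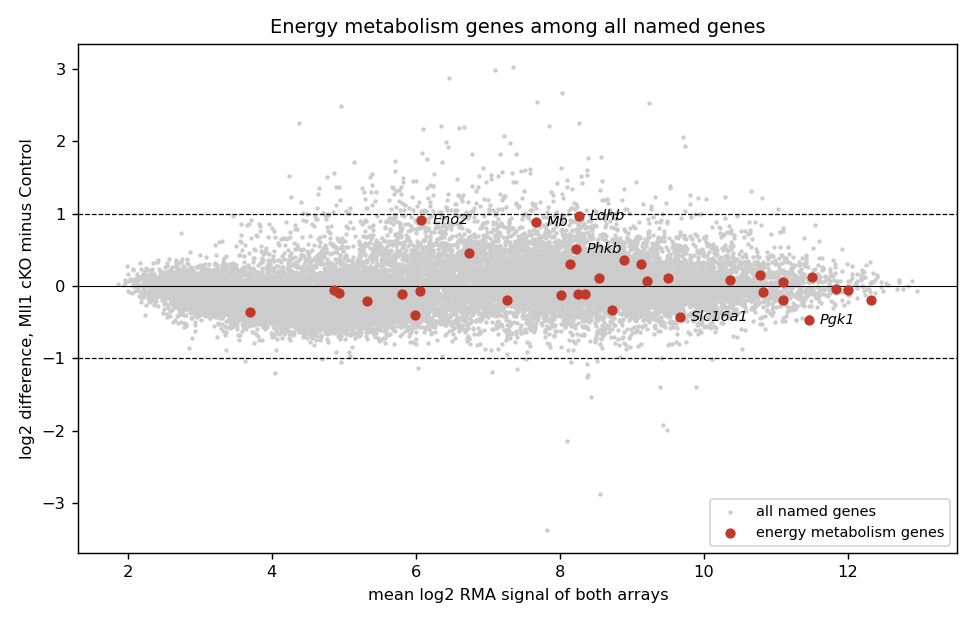
Log2 difference, Mll1 cKO minus control, against the mean log2 RMA signal of both arrays for the 19938 named genes (grey) and the 34 measured members (red), with 2-fold as dashed lines. Ldhb, Eno2 and Mb lie just under the upper line, and Pgk1 and Slc16a1 are the lowest members.

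Glycogen phosphorylase releases glucose from glycogen, and phosphorylase kinase switches it on. Pygm, the muscle phosphorylase, read 8.29 in Mll1 cKO and 7.99 in control, while Pygb, the brain form that is also made in immature muscle, read 9.24 in Mll1 cKO and 9.17 in control. Phkb, the regulatory β subunit of phosphorylase kinase that muscle shares with other tissues, had the highest difference among the 8 glycogen genes, with 8.47 in Mll1 cKO and 7.96 in control, 1.43-fold higher in Mll1 cKO. The other subunits had the lower signal in Mll1 cKO. The muscle α subunit Phka1 read 8.19 in Mll1 cKO and 8.30 in control, and the muscle catalytic γ subunit Phkg1 read 3.52 in Mll1 cKO and 3.87 in control. Only 13.3% of named genes were dimmer than Phkg1 in Mll1 cKO. Whether its signal was above background is unknown, so it cannot show what the γ subunit did.

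The genes that build glycogen differed little. Gys1, the glycogen synthase of muscle and most tissues, read 9.56 in Mll1 cKO and 9.44 in control, and the branching enzyme Gbe1 read 8.60 in Mll1 cKO and 8.49 in control. Ugp2, which makes the UDP-glucose that the synthase uses, read 8.30 in Mll1 cKO and 8.41 in control. Of the 8 glycogen genes 5 had the higher signal in Mll1 cKO and 3 the lower, with a median difference of 0.09 that lay between 0.04 and 0.15 under the alternatives tried.

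Creatine kinases move phosphate between ATP and creatine. The cytosolic muscle form Ckm, a late marker of differentiation, read 5.76 in Mll1 cKO and 5.87 in control, and the mitochondrial form of striated muscle Ckmt2 read 4.84 in Mll1 cKO and 4.89 in control. Ckb, the form of brain and immature muscle, read 9.28 in Mll1 cKO and 8.97 in control. Both muscle forms were thus close to their control value, and the general form was 1.23-fold higher in Mll1 cKO.

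Myoglobin, the oxygen store of oxidative fibres and heart, was the muscle gene with the highest difference. Mb read 8.11 in Mll1 cKO and 7.22 in control, 1.85-fold higher in Mll1 cKO, and 1.66% of all named genes had a larger difference. Under the alternatives its difference lay between 0.79 and 0.95, and so above 1.5-fold in each.

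The 4 transporters of glucose and lactate had a median difference of -0.31, with 3 lower in Mll1 cKO; the median was -0.18 after removal of the trend on signal, and also over those with a signal over 7. Slc2a1, the glucose transporter of most dividing cells, read 10.40 in Mll1 cKO and 10.32 in control, and Slc2a4, the insulin-regulated transporter of muscle and fat, read 5.21 in Mll1 cKO and 5.42 in control. Slc16a1, the monocarboxylate transporter MCT1 that carries lactate in most cells, read 9.46 in Mll1 cKO and 9.89 in control, 1.35-fold lower in Mll1 cKO. Slc16a3, MCT4, the lactate exporter of glycolytic muscle, read 5.79 in Mll1 cKO and 6.19 in control, so both lactate transporters among the members had the lower signal in Mll1 cKO. Another monocarboxylate transporter, outside the members, went the other way: Slc16a7 (MCT2) had 6.99 in Mll1 cKO and 6.36 in control, 1.55-fold higher in Mll1 cKO; it was named after its value was seen. The Slc16a1 promoter above holds more matches to ACGTG or GCGTG than the other promoters shown, including an E-box CACGTG.

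Pyruvate dehydrogenase kinases hold back the entry of pyruvate into mitochondria. Pdk4, a known target of PPAR and FOXO factors, read 10.85 in Mll1 cKO and 10.70 in control, and Pdk1, a known target of HIF1, read 6.02 in Mll1 cKO and 6.09 in control.

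Set side by side by isoform class, the muscle forms and their counterparts both held genes with the higher and genes with the lower signal in Mll1 cKO. Not all counterparts are foreign to muscle. Ldhb is also a subunit of slow muscle, and Pygb and Ckb are also made in immature muscle. Of the 10 muscle forms 4 had the higher signal in Mll1 cKO and 6 the lower, with a median difference of -0.05. Of the 11 measured counterparts 6 were higher and 5 lower, with a median of 0.055. Of the 13 measured members in neither class 5 were higher and 8 lower, with a median of -0.07. Under the alternatives the medians of these last 2 classes lay between 0.04 and 0.11 and between -0.15 and -0.01. The median of the muscle forms depended on those with a low signal. Over the 5 muscle forms whose brighter array read over 7, Pfkm, Eno3, Pygm, Phka1 and Mb, 3 were higher and 2 lower, and the median was 0.30, against 0.06 over the 8633 named genes that passed the same filter.

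**Figure D3:**
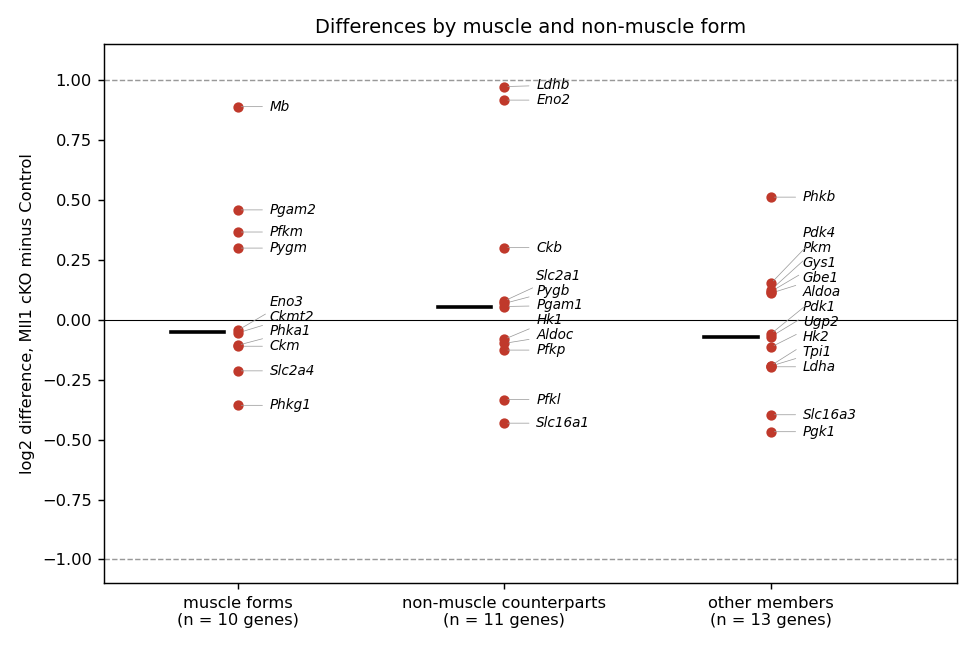
Log2 difference, Mll1 cKO minus control, of each measured member in 3 classes: 10 muscle forms, 11 counterparts and 13 other members. Bars are the class medians and dashed lines mark 2-fold. Each class spans 0, and Mb leads the muscle forms while Ldhb, also a subunit of slow muscle, and Eno2 lead the counterparts.

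Isoforms of the same step were also set against each other as 13 pairs, of which 12 had both genes measured. The muscle or muscle-enriched gene had the higher difference in 7 pairs and the lower in 5. The count of 7 was 5 after a second quantile normalization and 6 after removal of the trend on signal. In the pairs led by Hk2, Aldoa, Ldha, Slc16a3 and Pdk4 the first gene was not among the muscle forms classed above. The gap, as the difference of the first gene minus that of the second, was 0.70 for Pfkm over Pfkl, 0.49 for Pfkm over Pfkp, 0.40 for Pgam2 over Pgam1, 0.23 for Pygm over Pygb and 0.22 for Pdk4 over Pdk1. On the other side, the gap was -1.17 for Ldha over Ldhb, -0.96 for Eno3 over Eno2, -0.41 for Ckm over Ckb, -0.29 for Slc2a4 over Slc2a1 and -0.11 for Hk2 over Hk1. These 10 gaps kept their sign under each alternative in which both genes were measured, but not all kept their size. The gap of Hk2 over Hk1 was -0.22 with the Hk1 probe set that has a RefSeq transcript and -0.0038 with the other, brighter one, which may measure Rpl17. After removal of the trend on signal, the gap of Slc2a4 over Slc2a1 was -0.11 and that of Pdk4 over Pdk1 0.15. The gaps of 0.04 for Aldoa over Aldoc and 0.04 for Slc16a3 over Slc16a1 did not: the first was -0.15 and the second -0.02 at their lowest. Pairs that share a gene, as both of Pfkm, are not separate observations. Only Pfkm with Pfkl or Pfkp, Pygm with Pygb, Hk2 with Hk1 and Ldha with Ldhb had both genes over a signal of 7. In every other pair a gene read 7 or under in both arrays. The general enolase Eno1 was not measured, so Eno3 was paired only with the neuronal Eno2.

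**Figure D4:**
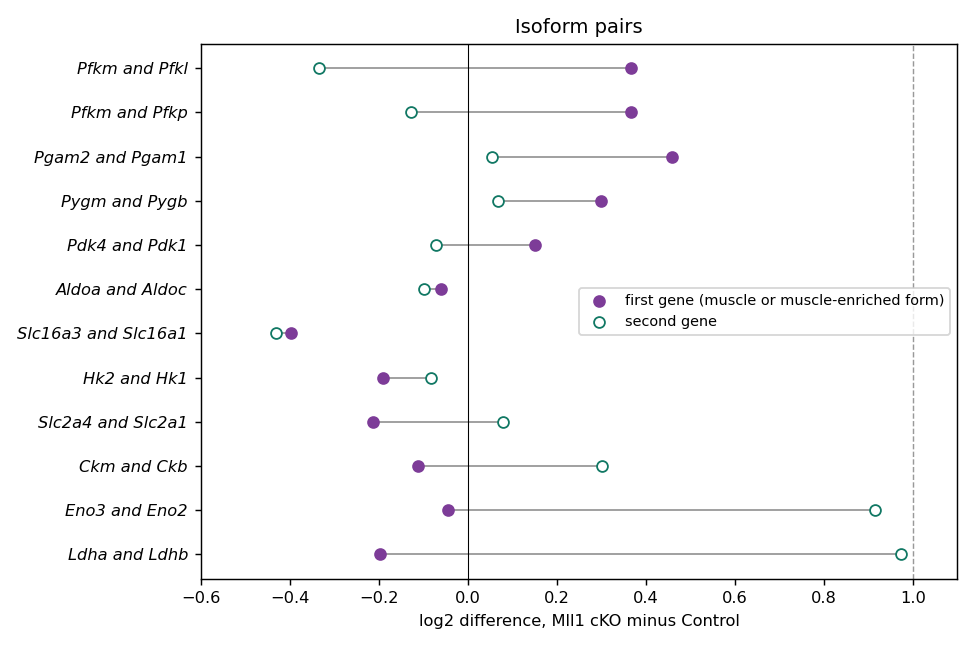
Log2 difference, Mll1 cKO minus control, of both genes of each of the 12 measured isoform pairs, with the muscle or muscle-enriched gene filled and its counterpart open; the dashed line marks 2-fold. The pairs run from Pfkm and Pfkl, with the muscle gene 0.70 above its counterpart, to Ldha and Ldhb, with the first gene 1.17 below.

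Promoter sequences were matched for 36 of the 37 members, all but Slc2a4, and a gene was counted if any of its start sites held a motif, so that genes with more start sites offered more sequence. CAGCTG stood in 7 of 9 muscle forms (77.8%), in 0 of 12 counterparts and in 14 of 36 members (38.9%), against 18.3% of 27025 genes with a promoter. The 7 muscle forms with CAGCTG were Pgam2, Eno3, Pygm, Phka1, Ckm, Ckmt2 and Mb. Their differences ran between -0.11 and 0.89, with 3 higher and 4 lower in Mll1 cKO. Over all measured genes with CAGCTG, 1252 were higher and 1554 lower. CACCTG stood in 7 of 36 members (19.4%), against 22.6% of all genes. ACGTG or GCGTG stood in 27 of 36 members (75%) and in 15 of the 19 glycolytic enzymes (78.9%), against 46.7% of all genes. Of the members with this core that were measured, 9 were higher and 16 lower in Mll1 cKO. Over all measured genes with it, 4122 were higher and 4368 lower. The MEF2 consensus was found in Pgam2 and Ckb alone, 5.56% of the members against 3.70% of all genes. Both had the higher signal in Mll1 cKO, while over all measured genes with this motif 184 were higher and 263 lower. A match in a window is a description of the sequence, not of binding.

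Other genes of the same pathways were counted from 3 lists. Of 72 listed, 65 were measured, and 2 of these were more than 2-fold higher in Mll1 cKO and 0 more than 2-fold lower. The shares over all named genes were 1.16% and 0.11%. At 1.5-fold, 10 were higher and 0 lower, against 4.86% and 2.01% of all named genes, and the median was 0.02. The first of the 2 was Adssl1, the muscle adenylosuccinate synthase of the purine nucleotide cycle, with 8.77 in Mll1 cKO and 7.63 in control, 2.21-fold higher in Mll1 cKO and over 2-fold under each alternative. The other was Pgm5, a phosphoglucomutase relative found at muscle adhesion sites that has little enzyme activity, with 6.67 in Mll1 cKO and 5.63 in control, which was 2.06-fold higher but fell short of 2-fold after a second quantile normalization, at 0.97 on the log2 scale.

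Among the 30 measured other genes of glycolysis and pyruvate use, the median was 0.01 and its sign depended on the scaling. Pdk2, a further pyruvate dehydrogenase kinase, read 8.84 in Mll1 cKO and 7.95 in control. G6pc3, the glucose-6-phosphatase of most tissues, read 10.62 in Mll1 cKO and 9.81 in control, and Bpgm, the mutase that makes bisphosphoglycerate, read 6.55 in Mll1 cKO and 5.78 in control. All 3 were between 1.5-fold and 2-fold higher in Mll1 cKO. Among the 18 measured other glycogen genes, with a median of -0.04 that also changed sign with the scaling, the lysosomal glucosidase Gaa read 9.45 in Mll1 cKO and 8.85 in control, and laforin, Epm2a, read 5.78 in Mll1 cKO and 5.31 in control.

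The 17 measured other genes of phosphagen and muscle energy use had a median of 0.26 that lay between 0.24 and 0.32 under the alternatives. Of these, 12 were higher and 5 lower in Mll1 cKO, against 41.6% and 55.6% of all named genes. The AMP deaminases Ampd3 and Ampd1 belong to the same cycle as Adssl1. Ampd3 read 10.04 in Mll1 cKO and 9.29 in control, and Ampd1, the muscle form, read 5.50 in Mll1 cKO and 4.82 in control.

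Factors known to act on glycolysis and on Pdk4 were followed through their own genes and through other targets. The HIF1 list outside the members held 16 genes, Hif1a itself and 15 targets. None of the 16 was over 2-fold in either direction, and of the 15 targets 9 were higher and 6 lower in Mll1 cKO, with a median of 0.03. Hif1a read 10.27 in Mll1 cKO and 10.46 in control. The targets ran between Hmox1, heme oxygenase, with 10.62 in Mll1 cKO and 9.73 in control, and Adm, adrenomedullin, with 4.28 in Mll1 cKO and 4.83 in control. Egln1, an oxygen sensor that marks HIF1 for breakdown, read 8.23 in Mll1 cKO and 8.58 in control. The PPAR and FOXO list had 12 measured genes beside Pdk4, the factors Foxo1, Foxo3 and Ppard and 9 targets. Of the 9 targets 6 were higher and 3 lower in Mll1 cKO, with a median of 0.24. For both lists, the shares over all named genes were 41.6% higher and 55.6% lower. Foxo1 read 9.16 in Mll1 cKO and 8.71 in control, while Ppard read 8.23 in Mll1 cKO and 8.59 in control. Angptl4, a secreted inhibitor of lipoprotein lipase, read 7.61 in Mll1 cKO and 6.61 in control, 2.01-fold higher, but 0.89 on the log2 scale at the lowest alternative. Plin2, the coat protein of lipid droplets, read 10.75 in Mll1 cKO and 9.93 in control, and Klf15, a transcription factor of muscle and liver metabolism, read 5.30 in Mll1 cKO and 5.79 in control.

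Markers of muscle maturation and of S phase differed between the same arrays. Over all named genes 41.6% were higher in Mll1 cKO, 1.16% by more than 2-fold, and 55.6% were lower. Of 18 maturation markers 16 were higher in Mll1 cKO, 5 of them by more than 2-fold, and Tnni2 and Des were lower. Their median was 0.60, and their summed linear signal was 13500.3 in Mll1 cKO against 9152 in control. Myl1, a fast myosin light chain, read 11.42 in Mll1 cKO and 10.20 in control, and Mymk, the fusion protein myomaker, read 10.05 in Mll1 cKO and 8.91 in control. The other 3 over 2-fold were the myosin heavy chain Myh1, 7.86 in Mll1 cKO and 6.62 in control, the slow troponin I Tnni1, 8.65 in Mll1 cKO and 7.43 in control, and the calcium store protein Casq2, 7.79 in Mll1 cKO and 6.60 in control. Myog, the gene of myogenin, read 7.94 in Mll1 cKO and 7.30 in control. The paper, which also measured it by RT-qPCR, describes myogenin mRNA as unchanged. Of 21 S-phase genes 20 were lower in Mll1 cKO, with a median of -0.46 and a summed linear signal of 15598 in Mll1 cKO against 21068 in control. The lowest differences in it were -0.72 for Cdc6, which loads the replicative helicase, and -0.70 each for Gins1, a part of that helicase, and Pola1, the catalytic subunit of DNA polymerase α. The part of either list in the differences of Mb, Ldhb, Pgk1 and the other members was not tested.

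**Figure D5:**
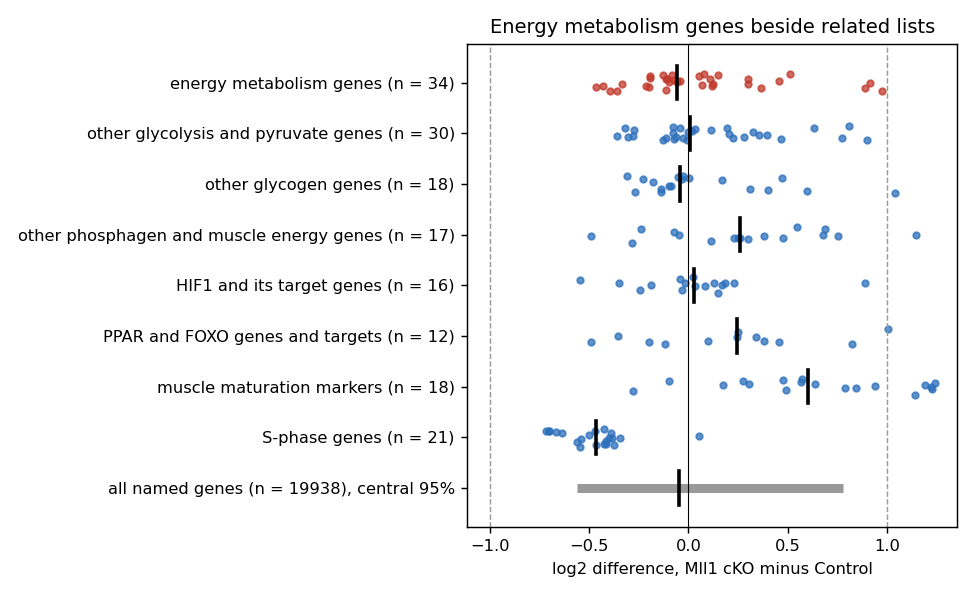
Log2 difference, Mll1 cKO minus control, of the 34 members (red) and of related gene lists (blue), 1 point a gene, with list medians as vertical bars; the grey bar is the central 95% of all 19938 named genes and dashed lines mark 2-fold. The members' median of -0.06 lies beside that of all genes at -0.05, while muscle maturation markers centre on 0.60 and S-phase genes on -0.46.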

How the data were processed

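Total RNA of 1 Mll1 cKO and 1 control myoblast culture was hybridised to Affymetrix MoGene 1.0 ST arrays. RMA normalization was run by the authors (software version not given in the sources used here), and the deposited values are log2 signals of 35557 probe sets. Symbols came from the array platform's annotation, which gave 1 symbol to 21789 probe sets, several to 1621 and none to 12147. Probe sets with 1 symbol were averaged per gene.

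The difference was the Mll1 cKO log2 signal minus the control log2 signal, and folds were obtained by raising 2 to the size of this difference. With 1 array per group neither a standard error nor a test could be had, and precision is limited by the number of arrays; whether a signal was above background was not known. Scripts were tested on simulated data. The members and gene lists were chosen with earlier results of these data known. All members were named, and of the pathway, target, maturation and S-phase lists those over 2-fold or among the 3 farthest from 0. Of the cell type lists only some genes were named, and the factors of the target lists, Ptprc, Pax7, Slc16a7, Myog, Tnni2 and Des were named outside this rule. Alternatives were centring on the median, a second quantile normalization, removal of a lowess trend (span 0.3), the brightest probe set, a signal over 7, updated symbols and cut-offs of 1.5- and 3-fold. The 6618 probe sets numbered below the first with a symbol were left out of centring and of the trend. A further alternative, probe sets with a RefSeq transcript only, was chosen after seeing the data. Python 3.11.15, pandas 2.3.3 and statsmodels 0.14.6 were used. Promoters came from RefSeq on GRCm38.p6.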

Additional observations from a re-analysis of the deposited data

How the results depend on the processing

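Of the 34 members 29 kept the sign of their difference under each alternative in which they were measured. Eno3 and Ckmt2 changed sign after centring, Ckmt2 after a second quantile normalization, Aldoc, Ckmt2 and Pdk1 after removal of the lowess trend, and Hk1 when only probe sets with a RefSeq transcript were kept, at 0.02 in place of -0.08; each of these differences was within 0.1 of 0 as reported. The count of members over 2-fold higher was 0 as reported, 1 after centring and 3 at the 1.5-fold cut-off, and no alternative gave a member over 2-fold lower. The median over all members was 0.0010 after centring, 0.0227 after removal of the trend and 0.0550 with a signal over 7. The median of the muscle forms was 0.0084, 0.0721 and 0.2987 under the same 3 settings, the last because 5 of its genes drop out. With a signal over 7 fewer isoform pairs were measured: Pfkm with Pfkl or Pfkp, Pygm with Pygb, Hk2 with Hk1 and Ldha with Ldhb. The muscle gene had the higher difference in 3 of these pairs. No scaling moved the median of all named genes by more than 0.1. No paired analysis was possible because the 2 arrays are 1 sample a group. The arrays give no detection calls. Whether the 9 members with a signal of 7 or under in both arrays, Eno2, Pgam2 and Ckm among them, were above background is therefore unknown. Probe sets of Pgk1 and Pgam1 may share sequence with processed copies of these genes, and for Ldhb this was not checked.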
